A study of Mus musculus with 6 samples.

Results

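The clustered histone genes encode the linker histone H1 and the core histones H2A, H2B, H3 and H4, and they were taken as every row of the deposited expression table whose symbol starts with Hist1h, Hist2h, Hist3h or Hist4h. The table lists 53677 gene symbols, of which 70 met that rule. Counted by symbol, 56 belonged to the Hist1 cluster on mouse chromosome 13 and 10 to the Hist2 cluster on chromosome 3. The Hist3 cluster on chromosome 11 had 3, and Hist4h4 on chromosome 6 stood alone. The pseudogene Hist1h2al, counted with Hist1, lies at chr13:51202727-51203065, far from the other Hist1 genes. By histone type there were 6 H1, 20 H2A, 19 H2B, 12 H3 and 13 H4 genes.

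The series compared short-term hematopoietic stem cells (ST-HSC), the bone marrow progenitors that sustain blood formation for a limited time, from mice with and without dnTCF4, a dominant negative form of the Wnt pathway transcription factor TCF4. All mice were on the C57BL/6J background, and all cells were sorted from marrow as lineage-negative, ckit+, CD48+ and CD150-. The 3 WT libraries carry the genotype label dnTCF4-/- and the 3 dnTCF4 libraries the label dnTCF4+/+, and the design text counts 3 mice in each group. The sources used here do not give the promoter that drives dnTCF4, the cells that express it, or the age and sex of the mice.

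Most histone mRNAs are made during S phase, when new DNA has to be packed, and these clustered genes supply nearly all of them. Their transcripts normally carry no introns and no poly(A) tail: they end just after a short RNA hairpin, the stem-loop, which is bound by the stem-loop binding protein SLBP and cut with the help of the U7 small nuclear ribonucleoprotein. Some clustered genes also make longer, polyadenylated transcripts, and cells that leave the cycle or differentiate are known to use them. Replacement variants such as H2A.Z and H3.3 are encoded elsewhere, have ordinary polyadenylated mRNAs and are made throughout the cell cycle.

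The labels give poly(A) RNA as the molecule measured, so a stem-loop mRNA without a tail is at a disadvantage in these libraries. The sources name 2 different SMART kits for the first step, one that reads from the poly(A) tail and one of universal type, and which was used cannot be told from them. Values are RPKM as deposited, which are reads scaled by exon length and by the size of the library. Counted reads, recovered from the steps of the RPKM values, came to between 61800000 and 67700000 in the WT libraries and to 63100000, 110900000 and 57400000 in dnTCF4 replicates 1 to 3. Immunoglobulin genes took 7.22% to 14.8% of the reads of WT libraries and 0.732% to 1.55% of those of dnTCF4 libraries. The median log2 fold change of all 11326 tested genes was 0.14 (dnTCF4 minus WT). After scaling the libraries by the median ratio that median was -0.04. In bulk RNA of this kind, fewer cells of a type and less RNA per cell cannot be told apart.

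Of the 70 clustered histone genes, 61 had at least 1 read in at least 1 library, 26 averaged 1 RPKM or more across the 6 libraries and were tested, and 9 had no read in any library. As a group they were lowly measured. The median of the 70 mean levels was 0.541 RPKM, and 6 genes lay above the median of all tested genes, 5.83 RPKM: Hist1h1b, Hist1h1a, Hist1h2bg, Hist2h2be, Hist1h2bm and Hist1h4d. The H2B genes were the best represented type, with 13 of 19 tested, followed by H1 (4 of 6) and H4 (6 of 13). Only 3 of 20 H2A genes and 0 of 12 H3 genes reached the level needed for testing. The gene just above that level was Hist1h2bf at a mean of 1.05 RPKM, and the gene just below it was Hist1h3d at 0.888 RPKM.

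The annotated transcripts were searched for the stem-loop and for what follows it. The stem-loop core was searched on the transcribed strand of GENCODE M21 transcripts as the stem arm GGNNCT, followed directly by the loop TTTN and then by the second stem arm AGNNCC. It was found in 46 of 78 transcripts of the clustered genes, belonging to 44 of the 70 genes, and in 52 of 58725 protein-coding transcripts of other genes (0.0885%). The next lines give the stem-loop of genes to which the results below return, with 5 bases on each side and the core in capitals, 5′ to 3′ as DNA letters.
Hist1h1c: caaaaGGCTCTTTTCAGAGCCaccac
Hist1h2ac: ccaaaGGCTCTTTTCAGAGCCcccac
Hist1h2bg: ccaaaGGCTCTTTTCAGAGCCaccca
Hist1h2bb: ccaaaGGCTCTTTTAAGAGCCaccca
Hist1h4i: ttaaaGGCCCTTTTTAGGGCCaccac
Hist1h4d: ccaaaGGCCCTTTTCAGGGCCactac
Hist1h1c, Hist1h2ac and Hist1h2bg hold the same core, while the others differ from it in the stem or in the loop. They also differ in what follows. The annotated transcript of Hist1h2bb stops 23 bases after the core, whereas that of Hist1h2bg runs on for 155 bases, Hist1h4i for 330, Hist1h4d for 770, Hist1h1c for 840 and Hist1h2ac for 2010.

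On that basis 23 genes had an annotated transcript that passes the stem-loop by more than 60 bases, and 12 of these were tested. Another 21 genes had transcripts that stop within 60 bases of it, of which 8 were tested. The remaining models held no match. In 18 no 3' end is annotated, of which 15 are protein-coding models that end within 20 bases of the stop codon and 3 are pseudogenes, and 8 have another 3' end. The 2 most highly measured genes, Hist1h1b and Hist1h1a, came from these last 2 classes. The model of Hist1h1b ends near its stop codon, and those of Hist1h1a, Hist2h2be and Hist1h2bc carry 3' ends in which the core was not found. Because RPKM divides by the annotated exon length, a long extension that few molecules carry lowers the RPKM of its gene.

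No clustered histone gene passed the test between genotypes at an adjusted p under 0.05 (limma, Benjamini-Hochberg over all 11326 genes), where 0.3% of all tested genes did. The lowest adjusted p was 0.19, for Hist1h1c. At an unadjusted p under 0.05, 7 of 26 genes had higher values in dnTCF4 and 0 had lower values, beside 7.52% and 2.1% of all tested genes in those directions. Values in dnTCF4 were higher on average for 24 of 26 genes, beside 68.5% of all genes, and the median log2 fold change of the 26 was 0.35. In 8 of 26 genes all 3 dnTCF4 libraries lay above all 3 WT libraries, which held for 15.4% of all tested genes, and in 0 of 26 they lay below, beside 2.26%. In 15 of 26 each dnTCF4 library lay above its same-numbered WT library, beside 37.3% of all genes.

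These counts depended on scaling, on pairing and on single libraries. After median ratio scaling, 3 of 26 genes were at an unadjusted p under 0.05, all with higher values in dnTCF4 (3.12% of all genes), and the median log2 fold change of the 26 was 0.21 with 23 of 26 above 0 (43.6% of all genes). With immunoglobulin genes left out, 6 of 26 were at that level and higher, beside 4.24%. With replicate number as a block, 11 of 26 genes passed that unadjusted level, all higher in dnTCF4, beside 12.1% of all genes, and 0 passed after adjustment, beside 0.433% (limma, lowest adjusted p 0.11, Hist1h4n). A voom fit to the recovered reads gave 4 genes at that level, beside 7.26%, and 0 after adjustment, beside 0.14%. Without a filter on low values 10 of 61 genes were higher and 1 lower at that level (5.87% and 1.66% of all genes), and with a filter of 0.1 RPKM 12 of 51 were higher and 1 lower (6.81% and 1.99%). Without dnTCF4 replicate 1 the count was 4 of 26 genes, beside 7.39% of all genes. Without WT replicate 1 it was 5 of 27 genes, beside 5.22%, and the median log2 fold change of the 27 was 0.17, beside 0.08 for all genes, and without replicate 1 of both genotypes it was 2 of 27 genes, beside 4.87%, with medians of 0.15 and 0.11. Without replicate 2 of both it was 3 of 26 genes, beside 2.41%, and without replicate 3 of both 6 of 24 genes, beside 5.7%.

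**Figure D1:**
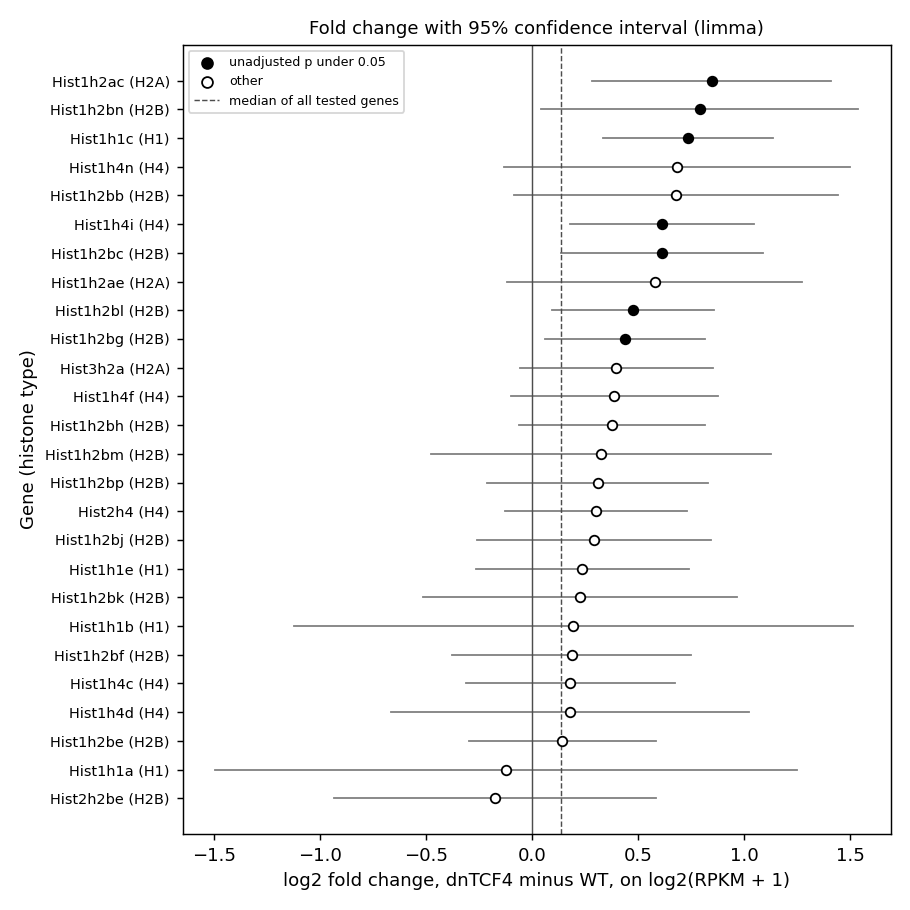
Log2 fold change (dnTCF4 minus WT, on log2(RPKM + 1)) of the 26 tested clustered histone genes, with 95% confidence intervals from limma (n = 3 libraries per genotype). Filled points are the 7 genes at an unadjusted p under 0.05, the dashed line is the median of all tested genes at 0.14, and 24 of the 26 points lie above 0.

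A pair of linker histone genes came first in level and in spread. H1 binds the DNA that enters and leaves the nucleosome, and its subtypes differ in when they are made. Hist1h1b (chr13:21779883-21780625, minus strand), which encodes the subtype H1.5, was the most highly measured clustered gene. It stood at 9.98, 43.0 and 24.7 RPKM in WT replicates 1 to 3 and at 29.2, 40.4 and 13.9 RPKM in dnTCF4 replicates 1 to 3. The groups overlapped fully, the highest and the lowest library both being WT. The log2 fold change was 0.20 ± 0.56 (SE, adjusted p = 0.88, limma).

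Hist1h1a (chr13:23763666-23764406, plus strand), which encodes H1.1, had the same wide spread, with 4.08, 20.8 and 10.8 RPKM in WT and 14.2, 11.3 and 4.42 RPKM in dnTCF4. WT replicate 1 and dnTCF4 replicate 3 were lowest for both genes, and WT replicate 2 was highest. The log2 fold change was -0.12 ± 0.58 (SE, adjusted p = 0.93, limma), and its sign turned without WT replicate 2 (0.38) or without dnTCF4 replicate 3 (0.32). Together Hist1h1a and Hist1h1b made up 18.5%, 43.2% and 27.7% of the summed RPKM of all clustered genes in WT and 28.3%, 33.3% and 12.3% in dnTCF4.

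Hist1h1c (chr13:23738808-23740367, plus strand) encodes H1.2, a subtype also made outside S phase. Its values were 3.74, 2.86 and 3.61 RPKM in WT, from 370, 276 and 381 reads, and 6.65, 5.67 and 6.62 RPKM in dnTCF4, from 654, 981 and 593 reads. The groups did not overlap, and the spread within each was small. The means were 3.40 ± 0.470 and 6.31 ± 0.557 RPKM (SD, n = 3), a log2 fold change of 0.74 ± 0.17 (SE), with an unadjusted p of 0.0033 and an adjusted p of 0.19 in limma. Hist1h1e, encoding H1.4, was at 1.31 ± 0.540 RPKM in WT and 1.68 ± 0.302 RPKM in dnTCF4 (SD, n = 3), with overlapping groups. Its exons overlap those of Hist1h2be, so reads there could be split or dropped. Hist1h1d, encoding H1.3, was measured at a mean of 0.472 RPKM and was not tested, and Hist1h1t, the testis subtype, had 5 reads in all.

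The H2A genes gave few reads apart from 3 members. Hist1h2ac (chr13:23681467-23683948, minus strand) was at 2.67, 1.20 and 1.85 RPKM in the WT libraries and 3.41, 3.89 and 5.22 RPKM in dnTCF4, the largest log2 fold change of the 26 tested genes at 0.85 ± 0.24 (SE). The groups did not overlap, and limma gave an unadjusted p of 0.0090 and an adjusted p of 0.31. Hist1h2ae (chr13:23570517-23571220, minus strand) stood at 2.10, 1.52 and 3.73 RPKM in WT and 3.20, 3.34 and 5.77 RPKM in dnTCF4. It was higher in dnTCF4 in each same-numbered pair, yet the groups overlapped through WT replicate 3. Its log2 fold change was 0.58 ± 0.30 (SE, adjusted p = 0.59, or 0.20 with the replicate block, limma).

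Hist3h2a (chr11:58954685-58956830, plus strand), the highest gene of the Hist3 cluster, had 1.28, 1.46 and 1.16 RPKM in WT and 2.14, 2.70 and 1.40 RPKM in dnTCF4. The groups overlapped because dnTCF4 replicate 3 lay below WT replicate 2, and the adjusted p was 0.58 (limma). Its exons share bases with Trim17. The other 17 H2A genes ranged from 0 to 0.650 RPKM on average, with Hist2h2ac (0.303, 0.560 and 0.511 RPKM in WT, 0.915, 0.572 and 1.04 RPKM in dnTCF4) the highest among them.

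H2B genes were read more evenly, and 12 of 13 tested members had a mean that was higher in dnTCF4. Hist1h2bg (chr13:23571396-23572013, plus strand), the highest H2B gene, was at 7.06, 6.18 and 7.05 RPKM in the WT libraries and 9.72, 8.84 and 10.01 RPKM in dnTCF4. The groups did not overlap and each had an SD of at most 0.609 RPKM. The log2 fold change was 0.44 ± 0.16 (SE), with an unadjusted p of 0.028 and an adjusted p of 0.46 in limma. Hist1h2bc (chr13:23684199-23692908, plus strand), whose annotated transcript has 2 exons spread over several kilobases, was at 4.47, 3.74 and 4.52 RPKM in the WT libraries and 8.86, 5.61 and 6.86 RPKM in dnTCF4. All 3 dnTCF4 libraries lay above WT again, with a log2 fold change of 0.61 ± 0.20 (SE, adjusted p = 0.39, limma).

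Hist1h2bn and Hist1h2bl are H2B genes annotated without a 3' end, and over 80% of the sequence of each is shared with other genes, so the assignment of their reads is uncertain. Hist1h2bn (chr13:21754123-21754503, plus strand) was at 1.78, 5.01 and 4.26 RPKM in the WT libraries and 5.70, 6.11 and 8.55 RPKM in dnTCF4 (log2 fold change 0.79 ± 0.32, SE, adjusted p = 0.50, limma). Hist1h2bl (chr13:21715763-21716143, minus strand) was at 1.61, 2.00 and 1.55 RPKM in the WT libraries and 2.50, 2.63 and 3.25 RPKM in dnTCF4 (log2 fold change 0.48 ± 0.16, SE, adjusted p = 0.42, limma). Neither gene's groups overlapped, and WT replicate 1 lay well below the other WT libraries for Hist1h2bn only.

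Other H2B genes had overlapping groups. Hist1h2bm had 3.13, 6.86 and 6.96 RPKM in WT and 6.32, 5.09 and 10.4 RPKM in dnTCF4. Hist1h2bb, whose model stops 23 bases past the stem-loop, had 1.64, 3.41 and 4.91 RPKM in WT and 6.31, 4.05 and 6.69 RPKM in dnTCF4 (adjusted p = 0.57, limma). In both genes WT replicate 1 was lowest and dnTCF4 replicate 3 highest. Hist1h2bj (4.27 RPKM on average in WT and 5.44 RPKM in dnTCF4), Hist1h2bk (2.44 and 3.03 RPKM) and Hist1h2bp (2.00 and 2.70 RPKM) were also lowest in WT replicate 1 and highest in dnTCF4 replicate 3, while the sign of Hist1h2bk turned to -0.03 without WT replicate 1 or without dnTCF4 replicate 3.

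Hist2h2be (chr3:96221119-96223738, plus strand), the highest gene of the Hist2 cluster, is known for its use in differentiated cells and shared no 50-base window with another gene. It had 6.67, 9.29 and 7.39 RPKM in WT and 9.50, 8.36 and 3.68 RPKM in dnTCF4. The dnTCF4 libraries spanned the WT range, with dnTCF4 replicate 3 far below the rest. It was the tested H2B gene with a lower mean in dnTCF4 (log2 fold change -0.17 ± 0.32, SE, adjusted p = 0.82, limma), and without dnTCF4 replicate 3 that value was 0.19.

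H3 and H4 form the central tetramer of the nucleosome, and their genes were read at low levels. Hist1h3d, the highest H3 gene, had 0.265, 0.337 and 1.57 RPKM in WT and 0.914, 0.621 and 1.62 RPKM in dnTCF4. Replicate 3 was the highest library in both genotypes. Hist2h3c2, the highest H3 gene of the Hist2 cluster, had 0.201, 0.333 and 0.348 RPKM in WT and 0.140, 0.0707 and 0.171 RPKM in dnTCF4, from 8 to 24 reads. It was the only untested gene with reads whose dnTCF4 libraries all lay below WT, and 63.5% of its windows are shared with other genes.

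Among the H4 genes, all 6 that were tested had higher means in dnTCF4, and 5 of them were at an unadjusted p above 0.05. Hist1h4i (chr13:22040636-22041362, minus strand) was at 1.78, 2.23 and 2.60 RPKM in WT and 3.93, 3.24 and 4.53 RPKM in dnTCF4. The groups did not overlap, and the log2 fold change was 0.61 ± 0.18 (SE, unadjusted p = 0.012, adjusted p = 0.33, limma). Hist1h4d, the highest H4 gene, was at 2.80, 6.73 and 7.50 RPKM in WT and 4.19, 8.16 and 6.65 RPKM in dnTCF4, with overlapping groups and an adjusted p of 0.83 (limma). Its log2 fold change of 0.18 became -0.18 without WT replicate 1.

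Hist1h4n (chr13:21831767-21832196, minus strand) was at 1.14, 0.602 and 2.16 RPKM in WT and 2.36, 1.49 and 4.38 RPKM in dnTCF4. Each dnTCF4 library lay above its same-numbered WT library while the groups overlapped, and the adjusted p was 0.59, or 0.11 with the replicate block (limma). Of the sequence of Hist1h4n 85.6% is shared with other genes, and 83.2% with Hist1h4m, so the assignment of its reads is uncertain. Hist1h4c averaged 3.79 ± 0.877 RPKM in WT and 4.40 ± 0.767 RPKM in dnTCF4 (SD, n = 3), and Hist2h4 had means of 1.57 ± 0.394 and 2.17 ± 0.380 RPKM (SD, n = 3). Both overlapped. Hist4h4, the single gene of its locus, was at 0.777 ± 0.146 RPKM in WT and 0.966 ± 0.185 RPKM in dnTCF4 (SD, n = 3) and was not tested.

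Below the level for testing lay 35 clustered histone genes with reads. Of these, 26 averaged higher in dnTCF4 and 9 lower, where 64.0% of all 19344 read genes under 1 RPKM averaged higher. In 9 of the 35 all dnTCF4 libraries lay above all WT libraries, beside 7.41% of those genes, and in 1 they lay below, beside 2.3%. The 9 were the H1 gene Hist1h1d (0.322 ± 0.110 RPKM in WT and 0.621 ± 0.152 RPKM in dnTCF4, SD, n = 3), the H3 genes Hist1h3e (0.425 ± 0.114 and 0.821 ± 0.364 RPKM) and Hist1h3f (0.479 ± 0.104 and 0.778 ± 0.0337 RPKM), the H4 gene Hist1h4h (0.522 ± 0.107 and 1.17 ± 0.561 RPKM), the H2B pseudogene Hist3h2bb-ps (0.244 ± 0.124 and 0.611 ± 0.262 RPKM), and the H2A genes Hist1h2ab, Hist1h2ad, Hist1h2ao and Hist2h2ac. Reads ranged widely among them, from 4 in all for Hist1h2ao and 18 for Hist1h2ad to 1506 for Hist1h1d. In the fit with a filter of 0.1 RPKM, Hist1h1d, Hist1h2ab, Hist1h3f, Hist1h4h and Hist3h2bb-ps were higher at an unadjusted p under 0.05, and in the fit without a filter Hist1h1d, Hist1h2ad and Hist1h2ao were. None passed after adjustment in either fit (limma).

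**Figure D2:**
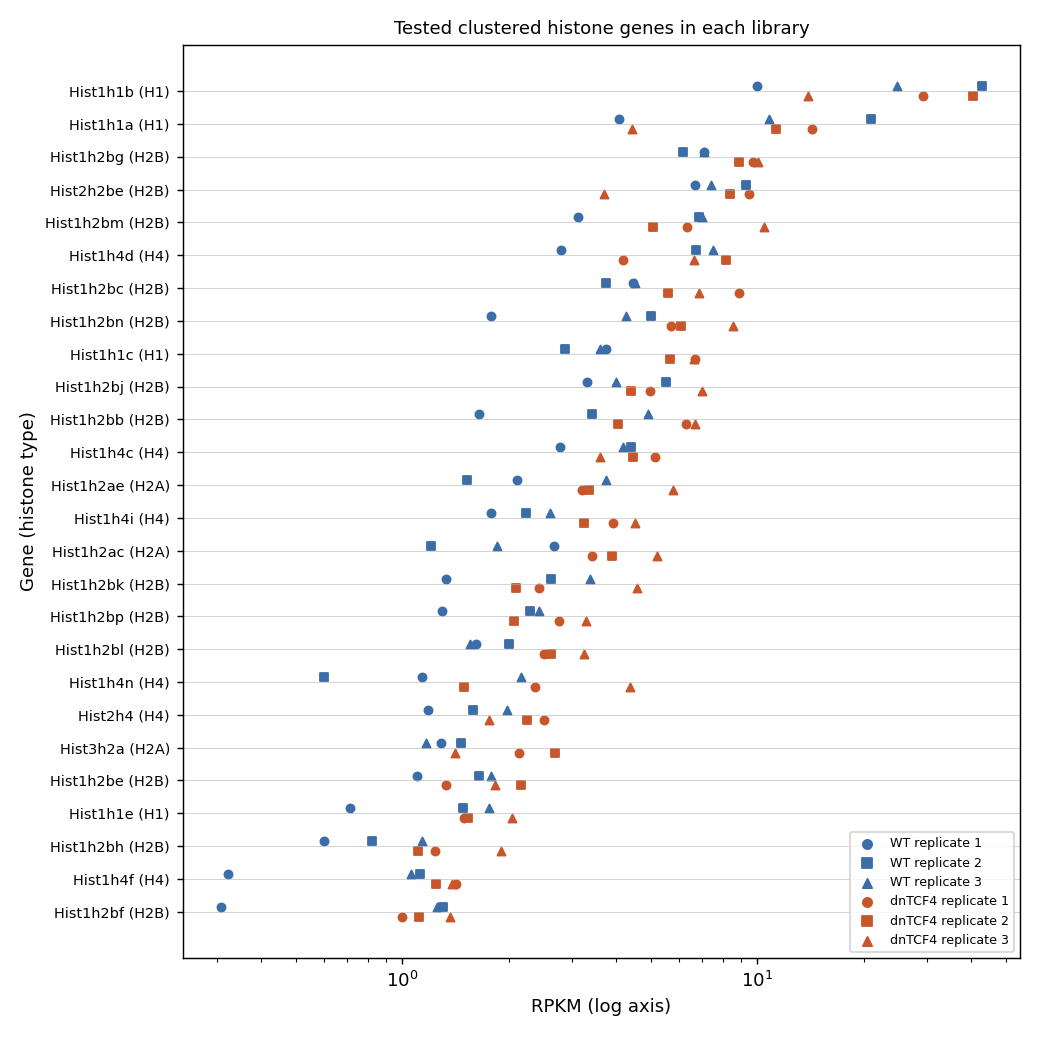
RPKM on a log axis of the 26 tested clustered histone genes in each of the 6 libraries, with WT in blue and dnTCF4 in orange and 1 marker shape per replicate number. Hist1h1b and Hist1h1a spread most between libraries of the same genotype, while the 3 WT points of Hist1h1c lie from 2.86 to 3.74 RPKM and its 3 dnTCF4 points from 5.67 to 6.65 RPKM.

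Summed over all 70 genes, the level was 76.0, 147.9 and 127.9 RPKM in WT and 153.5, 155.0 and 149.1 RPKM in dnTCF4. The dnTCF4 libraries lay close together and above all WT libraries, which were spread by WT replicate 1. After median ratio scaling the sums were 90.1, 158.6 and 122.2 RPKM in WT and 145.1, 146.7 and 128.5 RPKM in dnTCF4, and the groups overlapped. The ratio of the means was 1.30 on the deposited scale, 1.20 with immunoglobulin genes left out and 1.13 after median ratio scaling. Without Hist1h1a and Hist1h1b the means were 79.5 and 114.7 RPKM, a ratio of 1.44. That ratio was 1.33 with immunoglobulin genes left out and 1.25 after median ratio scaling. This omission was added after the data were seen.

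By type, the ratio of dnTCF4 to WT was 1.75 for H2A (7.71 ± 1.40 against 13.5 ± 3.03 RPKM), 1.53 for H3 (3.83 ± 1.10 against 5.86 ± 2.11 RPKM), 1.40 for H4 (17.2 ± 4.72 against 24.1 ± 1.81 RPKM) and 1.37 for H2B (45.6 ± 9.64 against 62.6 ± 8.16 RPKM), with SD and n = 3 throughout. H1 was at 42.8 ± 24.9 and 46.4 ± 16.5 RPKM (SD, n = 3), a ratio of 1.08 that became 0.958 after median ratio scaling. The summed H2A, H2B and H4 levels of the groups did not overlap, while those of H1 and H3 did. After median ratio scaling the H2B sums overlapped too (40.9 to 55.0 RPKM in WT, 51.2 to 60.6 RPKM in dnTCF4). With immunoglobulin genes left out both the H2B sums (40.5 to 55.3 and 54.5 to 71.4 RPKM) and the H4 sums (14.1 to 22.8 and 22.5 to 26.03 RPKM) overlapped, and those of H2A did not on any of these scales. By cluster, Hist1 had means of 104.5 ± 35.2 and 138.3 ± 1.52 RPKM, Hist2 of 10.3 ± 1.66 and 10.4 ± 3.35 RPKM and Hist3 of 1.73 ± 0.255 and 2.83 ± 0.384 RPKM (SD, n = 3). The near-equal Hist2 sums were mostly Hist2h2be.

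**Figure D3:**
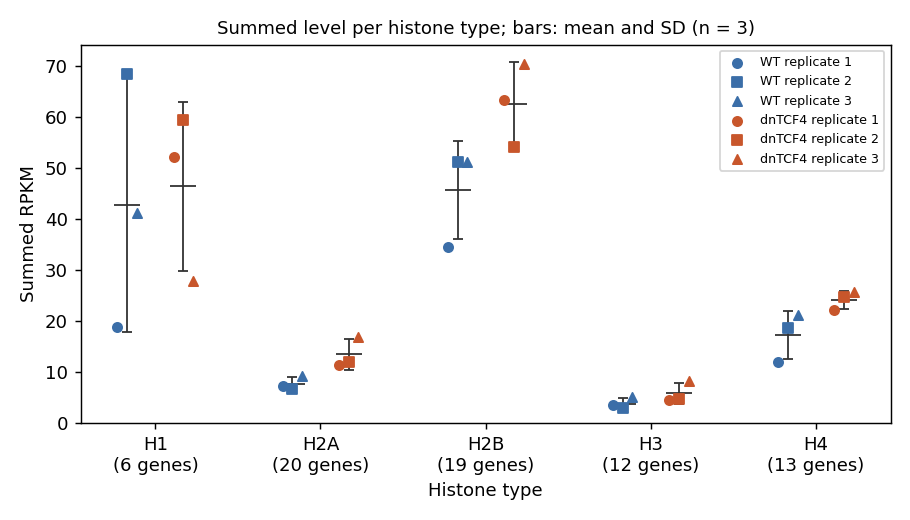
Summed RPKM of the H1, H2A, H2B, H3 and H4 genes in each library, with horizontal bars for the mean and error bars for the SD (n = 3 libraries per genotype). H1 ranges from 18.8 to 68.5 RPKM within WT, while the H2A sums are 6.63 to 9.29 RPKM in WT and 11.4 to 16.9 RPKM in dnTCF4.

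Levels by transcript model were compared next, since the models differ in how far they run past the stem-loop. These classes do not separate tailed from untailed mRNA. A poly(A) hexamer (AATAAA or ATTAAA) lay in the last 50 bases of some extended models, such as Hist1h1c and Hist1h4i. It was absent there from others, such as Hist1h2ac, Hist1h2bg and Hist1h4d, and present in the short model of Hist1h4h. The 23 genes with an extended transcript summed to 36.6 ± 6.34 RPKM in WT and 53.2 ± 4.03 RPKM in dnTCF4, a ratio of 1.46. The 21 genes with short transcripts summed to 23.1 ± 7.34 and 34.1 ± 10.3 RPKM (SD, n = 3), a ratio of 1.48. The 18 genes without an annotated 3' end summed to 33.2 ± 18.7 and 40.1 ± 10.6 RPKM, mostly from Hist1h1b, and the 8 with another 3' end to 24.4 ± 9.39 and 25.1 ± 8.69 RPKM (SD, n = 3). The median log2 fold changes of tested genes were 0.39 for extended models and 0.32 for short ones. After median ratio scaling the ratios of the sums were 1.26 for extended models and 1.28 for short ones.

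Clustered histone genes are near copies of each other, and the share of each transcript found elsewhere went with how much of it was counted. Each transcript was cut into overlapping windows of 50 bases. A window was called shared when it occurred in a transcript of another gene whose exons do not overlap those of the first. Bases that 2 genes share by overlap are thus not counted, and Hist2h2bb stands at 0% although all its exon bases lie in another gene. The 13 genes with under 10% of windows shared had a median level of 1.63 RPKM and 8 of them were tested. The 25 genes with 10% to under 50% had a median of 0.888 RPKM and 12 were tested, and the 32 genes with 50% or more had a median of 0.145 RPKM and 6 were tested. How reads that match several places were counted is not stated in the sources used here, so its part in these levels was not tested.

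All 9 unread genes are accounted for by name. Hist2h2aa1, Hist2h2aa2, Hist2h2bb, Hist2h3b and Hist2h3c1 are the 5 genes all of whose exon bases also lie in the exons of another annotated gene, and all 5 were listed at 0 in the 6 libraries. Of the other 4, Hist1h2br shares 88.7% of its windows and Hist1h2aj and Hist1h2al are annotated as pseudogenes, sharing 93.1% and 67.6%. Hist1h2aa, a testis type H2A gene, shares 2.35%. With 0 reads, a level of up to 0.134 RPKM of Hist1h2aa was possible in the library where 3 reads are worth most, counting error only.

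**Figure D4:**
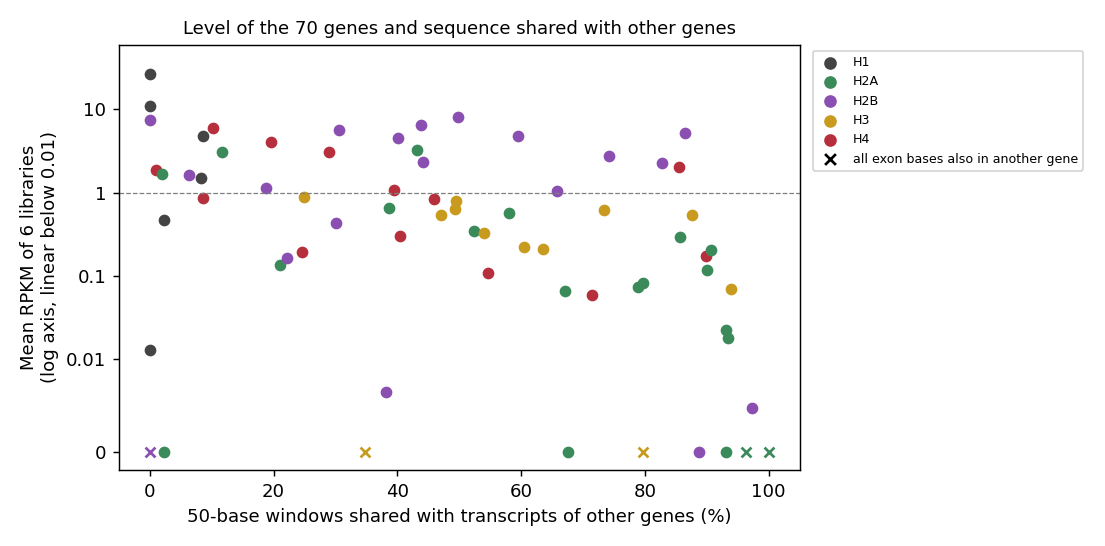
Mean RPKM over 6 libraries (log axis, linear below 0.01) of the 70 clustered histone genes against their percentage of shared 50-base windows, coloured by histone type. Shared windows occur in transcripts of other genes, leaving out genes whose exons overlap. Crosses are the 5 genes whose exon bases all lie in another gene, all at 0, and the dashed line marks the 1 RPKM needed for testing.

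H2A and H2B genes often lie head to head and share the DNA between their starts. There were 14 such pairs, with 172 to 305 bases between the annotated starts. The H2B gene had the higher mean in 11 pairs and the H2A gene in 3, and the median level was 2.54 RPKM for H2B and 0.161 RPKM for H2A. Annotated microRNA genes lie inside the exons of 17 of the 20 H2A genes and of 0 of the 50 genes of other types, and whether reads there were dropped as ambiguous was not tested. The 3 pairs in which the H2A gene was higher were Hist3h2a with Hist3h2bb-ps, Hist1h2ao with Hist1h2bq, and Hist1h2ap with Hist1h2br, with at most 4 reads for any gene of the last 2 pairs.

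In the pair Hist1h2ac and Hist1h2bc neither gene's groups overlapped, so the DNA they share is shown. It is the 239 bases between their RefSeq starts, chr13:23683960-23684198 of GRCm38.p6, printed 5′ to 3′ on the minus strand so that it reads into Hist1h2ac. Capitals mark matches on either strand to the TATA box letters TATAAA, to the CCAAT box letters CCAAT and to the octamer ATTTGCAT.
Hist1h2bc to Hist1h2ac: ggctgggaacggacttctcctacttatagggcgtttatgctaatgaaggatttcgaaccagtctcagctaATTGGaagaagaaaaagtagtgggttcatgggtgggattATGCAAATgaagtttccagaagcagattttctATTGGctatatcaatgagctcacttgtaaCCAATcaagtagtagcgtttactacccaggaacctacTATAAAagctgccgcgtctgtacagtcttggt
Counted from the first base printed, the octamer lies at bases 110 to 117 on the opposite strand, CCAAT at 171 to 175, its reverse complement ATTGG at 71 to 75 and 142 to 146, and TATAAA at 208 to 213 on the side of Hist1h2ac. No TATAAA was found facing Hist1h2bc. Only these exact letters were searched, so Hist1h2bc is not shown to lack a TATA box.

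RefSeq promoters were matched for 62 of the 70 genes, and the 250 bases before each start were searched on both strands, where the windows of head-to-head pairs overlap. CCAAT was found in 82.3% of them against 34.5% of all 27025 promoters, in every matched H1, H2A and H2B promoter and in 3 of 12 H4 genes. TATAAA was found in 46.8% against 13.0%. The octamer ATTTGCAT, the element bound by OCT1, was found in 20.97% against 1.61%, in 7 of 18 H2A and 6 of 16 H2B promoters and in none of the H1, H3 and H4 promoters. The H1 element AAACACA was found in 5 of 6 H1 promoters, 14.5% of the clustered genes and 6.22% of all promoters. The 120 bases before the starts of Hist1h1b, Hist1h1c and Hist1h2bg show how these are laid out in an H1 gene with wide spread, an H1 gene with narrow spread and an H2B gene, with the same letters in capitals.
Hist1h1b: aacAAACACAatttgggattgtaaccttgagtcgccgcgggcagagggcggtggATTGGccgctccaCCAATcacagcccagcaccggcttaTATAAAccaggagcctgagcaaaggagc
Hist1h1c: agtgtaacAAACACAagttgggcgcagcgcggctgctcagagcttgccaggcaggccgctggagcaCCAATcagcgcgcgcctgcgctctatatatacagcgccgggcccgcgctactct
Hist1h2bg: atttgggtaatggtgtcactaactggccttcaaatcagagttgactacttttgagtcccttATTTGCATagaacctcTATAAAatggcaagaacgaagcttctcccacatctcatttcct
They are chr13:21780626-21780745 on the minus strand, chr13:23738687-23738806 on the plus strand and chr13:23571280-23571399 on the plus strand, in that order. Both H1 promoters carry AAACACA and further on a CCAAT box. The exact letters TATAAA were matched in Hist1h1b and not in Hist1h1c, whose stretch holds tatatata near its start. Other forms of the TATA box were not searched, so Hist1h1c is not shown to lack one. Hist1h2bg has the octamer ahead of its TATAAA. A match here is a match of letters only.

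Genes that process, carry or replace the clustered histones were read in the same fit. Of 20 genes grouped here with the making, 3' end processing and turnover of histone mRNAs, 16 were tested and 0 were called. Fold changes were above 0 for 10 of the 16, beside 68.5% of all tested genes, with a median log2 fold change of 0.09. At an unadjusted p under 0.05 (limma), 1 gene was higher, beside 7.52% of all tested genes. With 1 library left out that count was 0 or 1. Slbp, which binds the stem-loop, was at 8.01 ± 1.12 RPKM in WT and 8.13 ± 0.696 RPKM in dnTCF4 (SD, n = 3). Cpsf2, a subunit of the cleavage complex, was at 11.2, 11.5 and 13.3 RPKM in WT and 14.4, 17.6 and 20.4 RPKM in dnTCF4, without overlap (adjusted p = 0.48, limma). Npat (9.06 RPKM in WT and 11.6 RPKM in dnTCF4 on average) and Cpsf3 (68.5 and 78.3 RPKM) were also higher in dnTCF4 without overlap. Such a gap was seen for 15.4% of all tested genes. The Npat mean was raised by dnTCF4 replicate 2 (15.6 RPKM). Its other dnTCF4 libraries (9.39 and 9.66 RPKM) lay just above the highest WT library (9.31 RPKM). Nelfe (31.0 and 24.4 RPKM), Cstf2 (9.83 and 7.02 RPKM) and Srrt (12.5 and 9.51 RPKM) had lower means in dnTCF4 with overlapping groups.

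Of 17 replacement variant genes, 10 were tested and 0 were called, with a median of 0.12. At the unadjusted level 1 was higher (7.52% of all tested genes), or 3 with the replicate block (12.1%). With 1 library left out that count was 0 or 1. The gene without the block was H1f0, the linker histone of non-dividing cells, at 2.46, 3.06 and 4.11 RPKM in WT and 6.49, 3.94 and 7.15 RPKM in dnTCF4 (unadjusted p = 0.029, adjusted p = 0.46, limma). The groups overlapped by WT replicate 3 and dnTCF4 replicate 2. H2afx, the variant marked at DNA breaks, averaged 5.86 RPKM in WT and 8.14 RPKM in dnTCF4, H2afv 15.8 and 19.3 RPKM, and Cenpa, the H3 variant of centromeres, 3.53 and 5.11 RPKM, all with overlap. H1fnt, H2afb1, H2afb2 and H2afb3 were listed at 0 in all libraries.

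Histone chaperones, which carry histones to DNA, were tested for 23 of 24 genes, and 0 were called or at an unadjusted p under 0.05 in either direction (limma). Their median log2 fold change was 0.03. The smallest p values were those of Npm1 (504 and 646 RPKM in WT and dnTCF4), Anp32e (81.9 and 111 RPKM), Nap1l4 (155 and 118 RPKM) and Chaf1a (3.25 and 2.49 RPKM), all with overlapping groups. After median ratio scaling the median was -0.11 for the chaperones, -0.12 for the genes grouped with histone mRNAs and -0.07 for the variants. It was -0.04 for all genes and 0.21 for the clustered histone genes.

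Markers of the cell cycle were read beside the clustered genes because these are S phase genes. Of 22 S phase genes, 21 were tested and 0 were at an unadjusted p under 0.05, with a median log2 fold change of -0.00 (-0.18 after median ratio scaling). Fold changes were above 0 for 10 of the 21, beside 68.5% of all tested genes. The genes of smallest p all had lower means in dnTCF4. Mcm3 averaged 219 RPKM in WT and 152 RPKM in dnTCF4, Mcm2 17.2 and 13.7 RPKM, Gins1 40.7 and 27.1 RPKM and Gins2 28.4 and 21.4 RPKM, all with overlap. Of 16 G2/M genes all were tested and 0 reached an unadjusted p under 0.05, or 1 with the replicate block (limma). Fold changes were above 0 for 14 of the 16, beside 68.5% of all tested genes. Their median was 0.28 (0.06 after median ratio scaling, and -0.00 without WT replicate 1). Cdk1 had means of 67.9 and 85.7 RPKM, Kif11 4.78 and 6.74 RPKM, Ccnb2 25.4 and 30.7 RPKM and Tpx2 37.4 and 47.6 RPKM, all with overlap.

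The order of the libraries differed between clustered genes. Hist1h1a and the summed replacement variants put the 6 libraries in the same order, from WT replicate 1 over dnTCF4 replicate 3, WT replicate 3, dnTCF4 replicate 2 and dnTCF4 replicate 1 to WT replicate 2. The variant sums were 378, 759 and 500 RPKM in WT and 570, 537 and 393 RPKM in dnTCF4. H2afz and H3f3b, abundant members of that sum picked after their values were seen, were both highest in WT replicate 2 (200 and 355 RPKM), and dnTCF4 replicate 3 was their lowest library (67.5 and 139 RPKM). Not all variants did so: H2afy, also named after its values were seen, was highest in dnTCF4 replicate 3 (97.8 RPKM) and lowest in dnTCF4 replicate 2 (50.3 RPKM). The S phase sum was also highest in WT replicate 2 (1531 RPKM) and lowest in dnTCF4 replicate 3 (867 RPKM).

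Most clustered genes did not share that order. Of the 26 tested genes, 15 were highest in dnTCF4 replicate 3 and 17 lowest in WT replicate 1, and only Hist1h1a and Hist1h1b were highest in WT replicate 2. Hist1h1c and Hist1h2bg were lowest in WT replicate 2 and near their maximum in dnTCF4 replicate 3. These orders rest on 6 libraries and are a description.

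**Figure D5:**
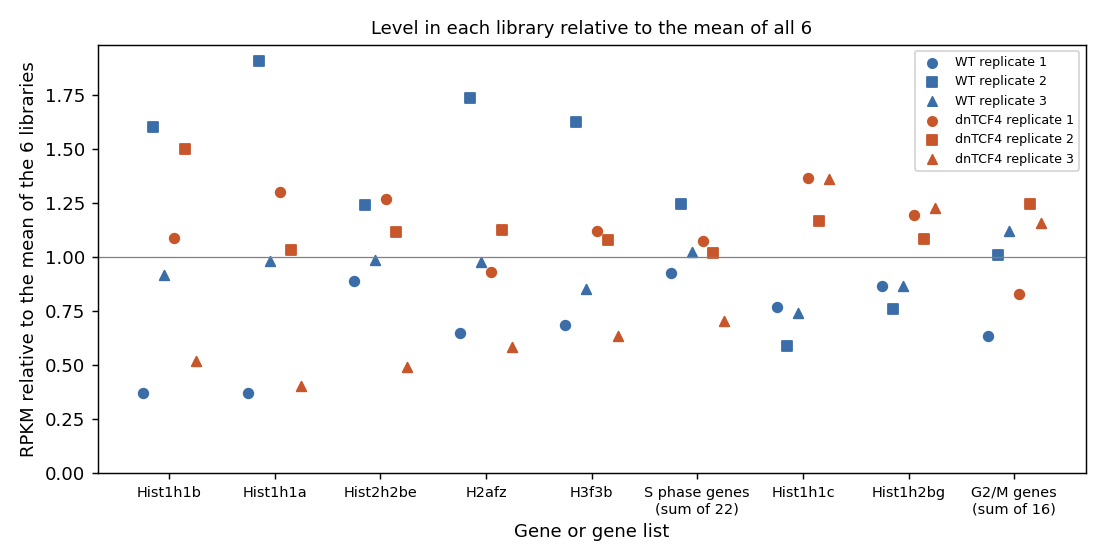
RPKM in each library divided by the mean of the 6 libraries, for 5 clustered histone genes, 2 replacement variant genes and the summed S phase and G2/M genes. Hist1h1a, H2afz and H3f3b share a maximum in WT replicate 2, at 1.91, 1.74 and 1.63 times their means, while Hist1h1c is at 0.590 there and at 1.36 in dnTCF4 replicate 3.

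Markers of the sort and of other cells were measured in the same libraries. Kit, the receptor used to gate the cells, was at 64.2 ± 18.3 RPKM in WT and 69.1 ± 31.2 RPKM in dnTCF4, Cd48 at 901 ± 90.6 and 1195 ± 209 RPKM, and Slamf1, which encodes the excluded CD150, at 0.931 ± 0.191 and 0.969 ± 0.218 RPKM (SD, n = 3). Neutrophil markers summed to 621 to 3128 RPKM in WT and 3078 to 7611 RPKM in dnTCF4. Of 10 tested, 8 were higher in dnTCF4 at an unadjusted p under 0.05 (limma), beside 7.52% of all tested genes. That count was 1 without WT replicate 1, 3 without WT replicate 2, 4 without dnTCF4 replicate 2 and 1 without dnTCF4 replicate 3. Higher values at that level were also found for 4 of 6 erythroblast markers tested and 3 of 6 megakaryocyte markers tested. Their list sums were 643 to 688 against 1005 to 1243 RPKM and 57.9 to 81.3 against 147 to 173 RPKM. Most of the first sum was Car2 (638 RPKM in WT and 1055 RPKM in dnTCF4 on average), and most of the second was Pf4 (51.5 and 131 RPKM). Untested erythroblast markers averaged under 1 RPKM: Hba-a1 0.280 and 0.244, Hba-a2 0.112 and 0.176, Alas2 0.267 and 0.245, Slc4a1 0.0306 and 0.0349, and Epor 0.397 and 0.961 RPKM. After adjustment 0 of the tested neutrophil, erythroblast and megakaryocyte markers were called. Of 9 plasma and B cell markers tested, 6 were lower at an unadjusted p under 0.05 (limma), beside 2.1% of all tested genes. Their list sums were 2745 to 8029 against 403 to 801 RPKM, mostly Jchain (4214 RPKM in WT and 503 RPKM in dnTCF4 on average). After adjustment none of the 9 passed, but Mzb1 did with the replicate block (adjusted p = 0.031, against 0.14 without it, limma) and Irf4 after median ratio scaling (adjusted p = 0.048, against 0.079, limma). Of 3 T and NK cell markers tested, 0 reached the unadjusted level (993 to 1230 against 746 to 1167 RPKM). Nearly all of that sum was Nkg7 (1091 RPKM in WT and 993 RPKM in dnTCF4 on average). Trac averaged 1.08 and 1.11 RPKM and Ncr1 1.06 and 1.68 RPKM, and the untested T and NK cell markers averaged under 1 RPKM. No gene of these lists was at 0 in all libraries, and their part in the values of the clustered histone genes was not tested.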

How the data were processed

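Poly(A) RNA of sorted cells was sequenced in 3 WT and 3 dnTCF4 libraries, from 20 ng of RNA each per the labels' protocols. The authors deposited RPKM values per gene symbol. The submitters' processing notes name STAR, featureCounts, DESeq2, edgeR and mm10 (GRCm38), with no versions, and the rules for multiply matching or overlapping reads are not stated there. Reads were recovered from RPKM and GENCODE M21 exon lengths. Within 0.02 of a read, 96.4% to 96.7% of the genes checked came out whole, as did all 70 members. Totals rest on that annotation, whose matched genes summed to 103% to 104% of them.

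limma 3.58.1 in R 4.3.3 (lmFit, eBayes with a trend, two-sided) was run on log2(RPKM + 1) for genes averaging 1 RPKM or more, genotype alone in the model, and p-values were adjusted by Benjamini-Hochberg over all 11326 genes. Fold changes on that scale understate those of low genes. Alternatives were a pseudocount of 0.1, a filter of 0.1 or none, a replicate block, median ratio scaling, immunoglobulin genes left out, each library left out, and voom on recovered reads. The fit was tested on simulated data. Sequences came from GENCODE M21 transcripts and RefSeq promoters (GRCm38.p6). Intervals are 95%, and a floor of 3 reads covers counting error only.

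Named were the 20 highest members, those at an unadjusted p under 0.05, the highest of each type in each cluster, unread members, up to 4 genes of smallest p in each related list, Slbp and the gate genes. H2afz, H3f3b, H2afy, Mzb1, Irf4, the genes named for overlaps, pairs, reads or hexamers and those named within marker lists were chosen after their values were seen. Members and lists were chosen with earlier results of these data known. Same-numbered libraries deviated together (correlations of deviations from the genotype means of 0.17, 0.35 and 0.30 over genes). The numbers, taken from the library titles, were therefore used as pairs in the replicate block and in the counts of same-numbered libraries. That pairing rests on these same values and on no label that pairs the libraries. The main fit and its p-values did not use the replicate numbers. Protein sequences were not used here. The p-values measure the spread between these 6 libraries.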

Additional observations from a re-analysis of the deposited data

How the results depend on the processing

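No clustered histone gene passed at an adjusted p under 0.05 in any of the fits run, replicate block, voom and each omission included. The count of 7 at an unadjusted p under 0.05 became 11 of 61 without a filter (1 of them lower), 13 of 51 with a filter of 0.1 RPKM (1 lower), 3 after median ratio scaling, 4 with voom and 11 with the replicate block, which follows from the pairing of same-numbered libraries and moved it by over 1.5 times. With 1 library left out it ranged from 4 to 8. After the data were seen, 2 alternatives were added. Leaving out replicate 1 of both genotypes gave 2 genes, replicate 2 of both gave 3 and replicate 3 of both gave 6. Summing without Hist1h1a and Hist1h1b gave 79.5 RPKM in WT and 114.7 RPKM in dnTCF4, where the dnTCF4 mean of all genes was 152.5 RPKM, 124.7 RPKM without Hist1h1b alone and 140.1 RPKM after median ratio scaling.

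Log2 fold changes of 21 members were compared under the alternatives that can move them, since the replicate block and the filters leave them as they are. Of 210 such values 201 kept their direction and 9 turned. Hist1h1b (-0.34 to 0.66 with 1 library left out) turned to -0.010 after median ratio scaling, -0.34 without WT replicate 1 and -0.13 without dnTCF4 replicate 2. Hist1h1a (-0.67 to 0.38) turned without WT replicate 2 and, at 0.32, without dnTCF4 replicate 3. Hist1h2bk (-0.033 to 0.43) turned without WT replicate 1 and without dnTCF4 replicate 3, Hist1h4d (-0.18 to 0.41) without WT replicate 1 and Hist2h2be (-0.40 to 0.19) without dnTCF4 replicate 3. The cause was not tested. Tested members had 8 to 3325 reads in a library, and 35 members with reads lay under the level for testing, some of them with fewer than 20 reads in all.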
